A study of Mus musculus with 2 samples.

Results

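The 10 genes described here are Slc2a1, Pgk1, Ldha, Pdk1, Bnip3, Ankrd37, Egln3, Vegfa, Car9 and Car12, which are known targets of the hypoxia response or enzymes of anaerobic glucose use. They are 10 of the 32285 genes listed in a single-cell RNA data set of mouse uterus, and each has 1 row. The genes were chosen because earlier results of the same data set showed them at different levels between epithelial cells of high and low depth, between epithelium and other cell classes, and between the libraries. Their levels in those contrasts are therefore given as a description, with no test.

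Cells sense oxygen through the hypoxia-inducible factors (HIFs), pairs of an unstable alpha subunit and a stable beta subunit. In oxygenated cells prolyl hydroxylases mark the alpha subunit, and the von Hippel-Lindau protein then directs it to destruction. When oxygen is short the alpha subunit persists and binds DNA at a short core motif near genes for glucose uptake, glycolysis, blood vessel growth and pH control. Several of these genes also respond to growth signals and to high glucose use without any lack of oxygen. The uterine epithelium, which lines the lumen and the glands, is nourished by vessels of the stroma beneath it.

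Uteri from females, 6 months old, were minced whole, digested with collagenase and DNase for 5 hours in warmth, freed of red cells, strained and profiled in droplets by sequencing the 3′ ends of transcripts. The control library (Prickle1 f/f) carried floxed alleles of Prickle1, which encodes a planar cell polarity protein, without a Cre. The conditional knockout library (Prickle1 f/f Ltf-cre, called cKO) carried the same floxed alleles and a Cre driven by Ltf, the lactoferrin gene, which is transcribed in uterine epithelium. Each library was 1 pool of 3 mice, so no value has a replicate, and genotype, animals, digestion and library preparation cannot be told apart. A separate genotype entry calls both samples C57BL/6J wild-type, against their titles, which name the groups here.

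The control library held 45035801 unique molecular identifiers (UMIs, 1 per captured transcript) and the cKO library 57145553. A barcode counted as a cell from 500 genes upward unless mitochondrial UMIs passed 20%, and 3624 control and 4886 cKO cells remained after doublet removal. The cells of the libraries had 5 barcodes in common. A cell entered a class when it held a UMI of the class gene (Epcam for epithelium, Pdgfra for stroma, Actg2 for muscle, C1qa for macrophages, Flt3 for dendritic cells) and scored highest for that class among 13 marker panels. Of 1034 control cells with an Epcam UMI 710 were epithelial by this rule, and of 183 in cKO 41 were. Epithelial cells were called deep at 20000 UMIs or more and shallow below 10000. This gave 260 deep and 370 shallow cells in control and 29 and 5 in cKO. Stromal cells numbered 451 and 971, muscle cells 268 and 513, macrophages 233 and 116, and dendritic cells 47 and 142. The marker panels, which are part of this rule, were highest in the class they name. The epithelial panel was at 13259 CPM (UMIs scaled to 1000000 UMIs of the class) in deep control cells and 12162 in deep cKO cells, at 11196 and 9603 CPM in shallow cells, and at most 683 CPM in the classes outside the epithelium. Deep cKO cells also held muscle panel transcripts, 643 CPM against 29.3 in control, although Actg2 itself had 1 UMI in cKO and 18 in control. Their stromal panel was at 105 CPM, against 18.8 CPM in control, with 18 and 6 UMIs of Pdgfra. The macrophage panel went the other way, at 25.2 CPM against 75.9 CPM in control. The part of these transcripts in the results below was not tested. Prickle1 itself had 10 UMIs in deep control cells (0.733 CPM) and 1 in deep cKO cells (0.406 CPM), too few to check the deletion, and a 3′ count outside the deleted part would not show it.

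HIF complexes recognise ACGTG or GCGTG, and the 250 bases upstream of the annotated start sites were searched for both motifs on both strands. At least 1 match lay upstream of 9 of the 10 genes, against 41.5% of the 27025 genes with a promoter sequence in RefSeq (GRCm38.p6). Counted by start site, 10 of 13 had a match, against 38.6% of 32851. Vegfa and Pdk1 each had a start site without a match, and the Vegfa matches lay within the gene, in exon sequence. ACGTG was found for 8 genes, against 18.5% of all genes, and GCGTG for 6, against 30.9%. Car12 had neither in its window, which says only that these letters are not there. The matches are letters, not proven sites, and the palindrome CACGTG counts on both strands. The 5 windows below are shown because each holds at least 2 matches and together they span glucose uptake, glycolysis and genes with wide differences between libraries. Capitals mark the motif on either strand, and each window runs 5′ to 3′ on the strand of its gene.
Ldha: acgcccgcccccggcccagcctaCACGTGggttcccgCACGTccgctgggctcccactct
Bnip3: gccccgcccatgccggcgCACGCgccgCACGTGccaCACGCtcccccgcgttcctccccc
Pgk1: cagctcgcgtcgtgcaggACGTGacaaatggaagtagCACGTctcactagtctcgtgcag
Slc2a1: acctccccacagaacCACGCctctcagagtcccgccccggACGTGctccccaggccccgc
Ankrd37: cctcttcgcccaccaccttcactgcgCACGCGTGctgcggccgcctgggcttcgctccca
The Ldha window is chr7:46845733-46845792 on the plus strand and the Bnip3 window chr7:138909582-138909641 on the minus strand. The Pgk1 window is chrX:106186932-106186991 on the plus strand, the Slc2a1 window chr4:119108669-119108728 on the plus strand and the Ankrd37 window chr8:45999972-46000031 on the minus strand. In the full 250 bases Ldha and Bnip3 each held 5 matches, Ankrd37 4, and Pgk1 and Slc2a1 2 each, counted on both strands. The Ldha and Ankrd37 windows lie inside the GENCODE gene but before the RefSeq start, in no exon, and the Bnip3 and Pgk1 windows lie outside the gene. Of the Slc2a1 window 18 bases are exonic.

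In control uterus 9 of the 10 genes were higher in deep epithelial than in stromal cells, where 21.6% of 13004 genes were. The differences ran from 2.98-fold for Ldha to 129-fold for Ankrd37, while Vegfa was less than 2-fold apart. Over alternative settings the log2 ratio ran from 6.31 to 7.51 for Ankrd37 and from 5.14 to 8.55 for Car9. Which gene differed most thus depended on the setting. Other cell classes also held some of them, and Pgk1 in control macrophages, at 549 CPM (518 to 582), overlapped deep epithelium. In cKO, of the 9 genes with enough UMIs, Car12 was called higher in deep epithelium than in stroma and 3 were called lower, where 19.9% of 13007 genes were higher and 22.2% lower. The call of Egln3, among these 3, did not hold under all settings. A gene was called different when its levels were at least 2-fold apart, its 95% counting interval left out 1 and it had at least 20 UMIs over both sides. All intervals cover counting error only, and a 3′ count is not scaled by transcript length, so levels are compared between cells and never between genes.

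Slc2a1 (ENSMUSG00000028645, chromosome 4, 119108711 to 119137983, plus strand, GRCm38) encodes the glucose transporter GLUT1. It stood at 580.4 CPM (568 to 593) in deep control cells and 76.7 CPM (66.1 to 88.4) in deep cKO cells, 7.57-fold lower (6.55 to 8.79). The shallow control cells were at 419 CPM, and outside the epithelium no class of either library was above 99.1 CPM. In control the order was deep epithelium, shallow epithelium, macrophages, stroma, dendritic cells and muscle, where stroma overlapped dendritic cells and dendritic cells overlapped muscle. In cKO macrophages (82.1 CPM), deep epithelium and stroma (66.5 CPM) overlapped at the top.

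Pgk1 (ENSMUSG00000062070, chromosome X, 106187100 to 106203699, plus strand) encodes phosphoglycerate kinase, and Ldha (ENSMUSG00000063229, chromosome 7, 46841475 to 46855627, plus strand) the lactate dehydrogenase subunit that favours lactate. Both have processed copies elsewhere in the genome, and how such reads were counted was not given in the sources used here. Pgk1 was at 566 CPM (554 to 579) in deep control and 287 CPM (266 to 309) in deep cKO cells, 1.97-fold lower (1.83 to 2.13) and just outside the 2-fold limit. Ldha was at 822 CPM (807 to 837) and 408 CPM (383 to 434), 2.01-fold lower (1.89 to 2.15) and just inside it. These enzymes were broadly expressed: no class was below 141 CPM for either gene in control. Pgk1 in control macrophages, 549 CPM, overlapped the deep epithelium, and in cKO macrophages (547 CPM), muscle (422 CPM) and stroma (356 CPM) were above it. Ldha in cKO was at 453 CPM in muscle and 422 CPM in stroma, with intervals that overlapped each other and that of the deep epithelium.

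Pdk1 (ENSMUSG00000006494, chromosome 2, 71873224 to 71903858, plus strand) encodes a kinase that shuts off pyruvate dehydrogenase and so keeps pyruvate out of mitochondria. It was at 24.1 CPM (21.6 to 26.9) in deep control cells and 4.06 CPM (1.95 to 7.46) in deep cKO cells, 5.94-fold lower (3.19 to 12.5). Of its 10 UMIs in deep cKO cells 60% were in 1 cell. Among the 6 classes its highest control level, 60.3 CPM (49.2 to 73.2), was in shallow epithelial cells, as for Vegfa alone among the other genes. In stroma it was at 2.34 CPM in control and 7.34 CPM in cKO.

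Bnip3 (ENSMUSG00000078566, chromosome 7, 138890836 to 138909519, minus strand) encodes a mitochondrial protein that promotes removal of mitochondria. Deep control cells had 2642 UMIs, 194 CPM (186 to 201), and deep cKO cells 18 UMIs, 7.30 CPM (4.33 to 11.5), 26.5-fold lower (16.7 to 44.8). Shallow control cells were at 73.9 CPM and macrophages at 68.4 CPM, with overlapping intervals. The stroma differed the other way between libraries, at 7.46 CPM (5.55 to 9.80) in control and 36.4 CPM (33.7 to 39.2) in cKO. Bnip3 was thus 26.0-fold higher (19.7 to 35.0) in deep epithelium than in stroma in control and 4.98-fold lower (3.13 to 8.45) in cKO. Whether these opposite differences exceed animal-to-animal spread was not tested.

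Ankrd37 (ENSMUSG00000050914, chromosome 8, 45996902 to 46005707, minus strand) encodes an ankyrin-repeat protein known as a HIF target. In control it was at 283 CPM (274 to 292) in deep epithelium and 2.19 CPM (1.23 to 3.62) in stroma, 129-fold (78.2 to 231). In deep cKO cells 12 UMIs in 7 of 29 cells gave 4.87 CPM (2.52 to 8.50), 58.2-fold lower (33.3 to 113) than in control, where 215 of 260 cells had a UMI. The cKO level overlapped that of cKO stroma, 3.09 CPM. In control muscle Ankrd37 had 0 UMIs, which allows up to 4.53 CPM.

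Egln3 (ENSMUSG00000035105, chromosome 12, 54178981 to 54203860, minus strand) encodes a prolyl hydroxylase that marks HIF alpha and is itself a HIF target. It was at 212 CPM (204 to 219.6) in deep control cells and 3.25 CPM (1.40 to 6.40) in deep cKO cells, where 8 UMIs lay in 5 cells. The difference was 65.2-fold (33.1 to 151), with an interval that overlapped that of Ankrd37. Shallow control cells were at 168 CPM and stroma, muscle, macrophages and dendritic cells between 11.1 and 21.2 CPM. In cKO Egln3 was 3.15-fold lower (1.57 to 7.40) in deep epithelium than in stroma, which was at 10.2 CPM. Over the alternative settings this log2 ratio ran from -2.42 to -0.34, the latter under the 2-fold limit.

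Vegfa (ENSMUSG00000023951, chromosome 17, 46016993 to 46032369, minus strand) encodes the main growth factor of blood vessels. It was at 824 CPM (809 to 839) in deep control cells and 61.7 CPM (52.3 to 72.3) in deep cKO cells, 13.4-fold lower (11.4 to 15.8). Vegfa was also high outside the epithelium, where stroma had 614 CPM (596 to 633) in control and 722 CPM (710.1 to 734) in cKO. Shallow control epithelium had the most, 1405 CPM (1349 to 1462). The deep epithelium of cKO was 11.7-fold below its own stroma (9.98 to 13.8), while in control it was 1.34-fold above (1.29 to 1.39). Alternative settings moved the cKO log2 ratio from -3.72 to -2.05.

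Car9 (ENSMUSG00000028463, chromosome 4, 43506966 to 43513729, plus strand) and Car12 (ENSMUSG00000032373, chromosome 9, 66713686 to 66766845, plus strand) encode carbonic anhydrases of the cell surface that help regulate pH outside the cell. Car9 was at 23.6 CPM (21.1 to 26.3) in deep control and 4.46 CPM (2.23 to 7.99) in deep cKO cells, 5.29-fold lower (2.92 to 10.7). Car12 was at 72.9 CPM (68.4 to 77.5) and 21.1 CPM (15.8 to 27.7), 3.45-fold lower (2.61 to 4.66). Both were low outside epithelium. In control Car9 had 3 UMIs in stroma and 4 in macrophages, in cKO 6 in stroma, and none in muscle or dendritic cells of either library. Car12 was the 1 gene still called higher in deep epithelium than in stroma in cKO, 14.9-fold (9.19 to 24.7). Car9 was 14.2-fold higher (4.81 to 46.7) but, with 11 and 6 UMIs, under the minimum of 20.

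**Figure D1:**
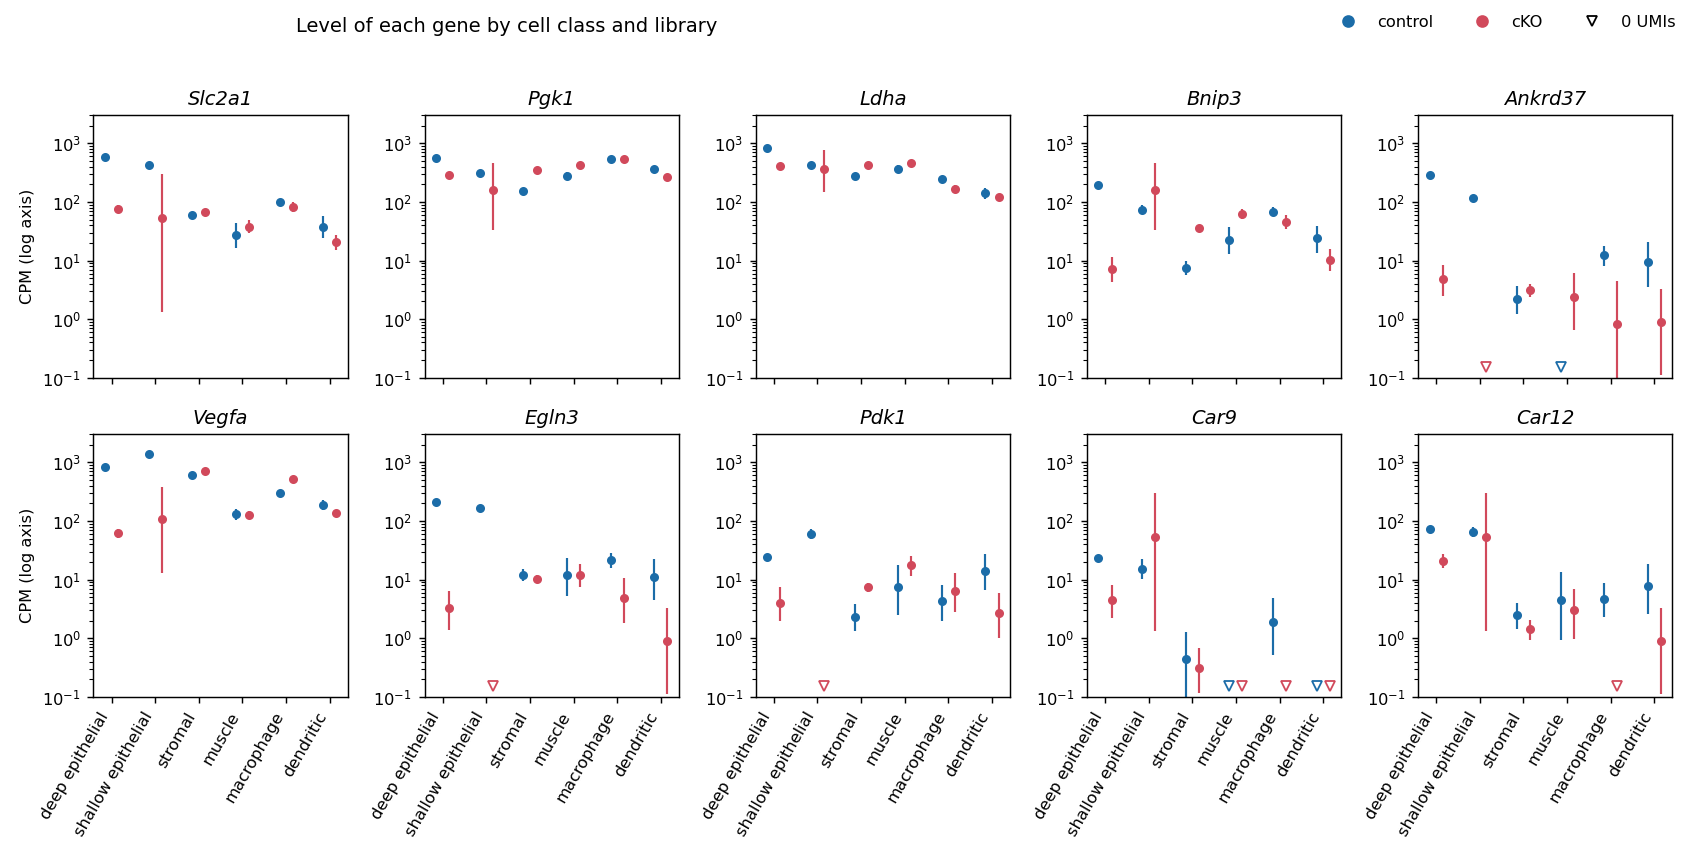
Level of each of the 10 genes in CPM (log axis) in 6 cell classes, control in blue and cKO in red, with 95% counting intervals; open triangles mark 0 UMIs. Control epithelium is highest for most genes, and the deep cKO epithelium is at 3.25 CPM for Egln3 and 4.87 CPM for Ankrd37.

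Counted together, 9 of the 10 genes were called higher in deep epithelium than in stroma in control, where 21.6% of 13004 genes were called higher and 35% lower, and none was called lower. Their median log2 ratio was 3.73 (3.48 to 4.33), beside -0.43 for all genes. The bracket gives the medians of the 10 genes' lower and upper limits and is not an interval of the median. In cKO 9 of the 10 had enough UMIs, of which Car12 was higher and Vegfa, Bnip3 and Egln3 were lower, where 19.9% of 13007 genes were called higher and 22.2% lower. The median there was -0.18, as for all genes. The Egln3 call was lost at the weakest alternative setting, with a log2 ratio of -0.34. Dissociation stress genes differed in the same contrast, with 7 of 14 higher and none lower in control (median 1.08) and 1 higher and 5 lower in cKO. In control they summed to 8018 CPM in deep epithelium and 4531 CPM in stroma, and the median mitochondrial share was 4.69% and 2.05%. In cKO the sums were 5054 and 5483 CPM and the mitochondrial shares 3.84% and 3.06%. Their part in the levels of the 10 genes was not tested.

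Between the libraries, 9 of the 10 genes were called lower in deep cKO than in deep control epithelium, where 9.47% of 11617 genes were called lower and 20% higher. Pgk1 was the exception, at a log2 ratio of -0.98. The median log2 ratio of the 10 genes was -2.71 (medians of the genes' limits -3.53 and -2.19) and that of all genes 0.29. The comparison as a whole was thus centred on the other side of 0. The genes made up 0.360% of all UMIs in deep control cells and 0.0879% in deep cKO cells. Each gene was lower in cKO under all 13 alternative settings tried, but the sizes moved. The log2 ratio ran from -4.01 to -2.26 for Vegfa, from -3.22 to -1.29 for Car9, from -3.63 to -1.92 for Pdk1, from -6.81 to -4.76 for Ankrd37, from -6.74 to -4.94 for Egln3 and from -1.63 to -0.98 for Ldha. Slc2a1, Bnip3, Pgk1 and Car12 stayed within 1.5-fold of their main value. The call of Ldha, near its limit, was lost in the settings with a higher depth minimum or a stricter panel score (log2 ratio -0.98 in both). Pgk1 passed 2-fold when cells were averaged (-1.05), with scaling by median of ratios (-1.25), with the mitochondrial limit at 10% (-1.05) and with the gate gene alone (-1.22).

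Other measures differed between the same cells. The dissociation stress genes listed further on summed to 8018 CPM in deep control and 5054 CPM in deep cKO cells, and the median mitochondrial share was 4.69% and 3.84%. Ltf, an oestrogen-responsive gene that also drives the Cre, was at 1669 and 208 CPM. The most abundant cell supplied 1.31% of the class UMIs in control and 11.3% in cKO. The part of any of these in the lower levels was not tested. Leaving out the top cell of each gene gave a median log2 ratio of -3.29, and deep cells of 20000 to 60000 UMIs gave -3.11.

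**Figure D2:**
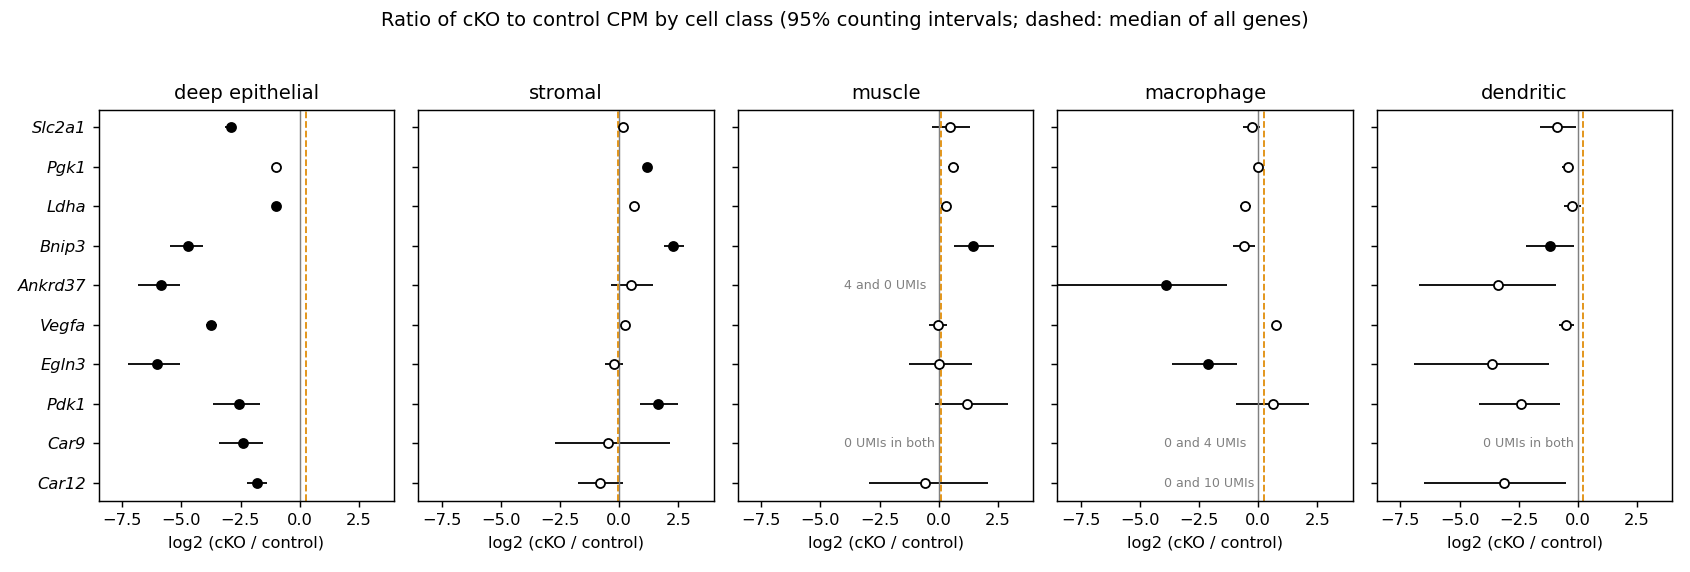
Log2 ratio of cKO to control CPM for the 10 genes in 5 cell classes, with 95% counting intervals; filled points are called, the dashed line is the median of all genes, and UMIs are written as cKO and control where a side is 0. In deep epithelium all points lie below 0 and 9 are filled, and in stroma Pgk1, Bnip3 and Pdk1 are filled above 0.

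Cell by cell, the deep cKO cells lay in the low end of a wide control range. The summed level of the 10 genes per deep cell ran from 108 to 10121 CPM in control, with a median of 3815 and quartiles of 1924 and 5330. In cKO it ran from 295 to 1359.8 CPM, with a median of 874 and quartiles of 642 and 986. Of the control cells 207 of 260 (79.6%) exceeded the highest cKO cell, and 29 lay below the cKO median. The median number of the 10 genes detected was 8 in a deep control cell and 5 in a deep cKO cell, although cKO cells were deeper (median 59897 against 42194 UMIs).

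**Figure D3:**
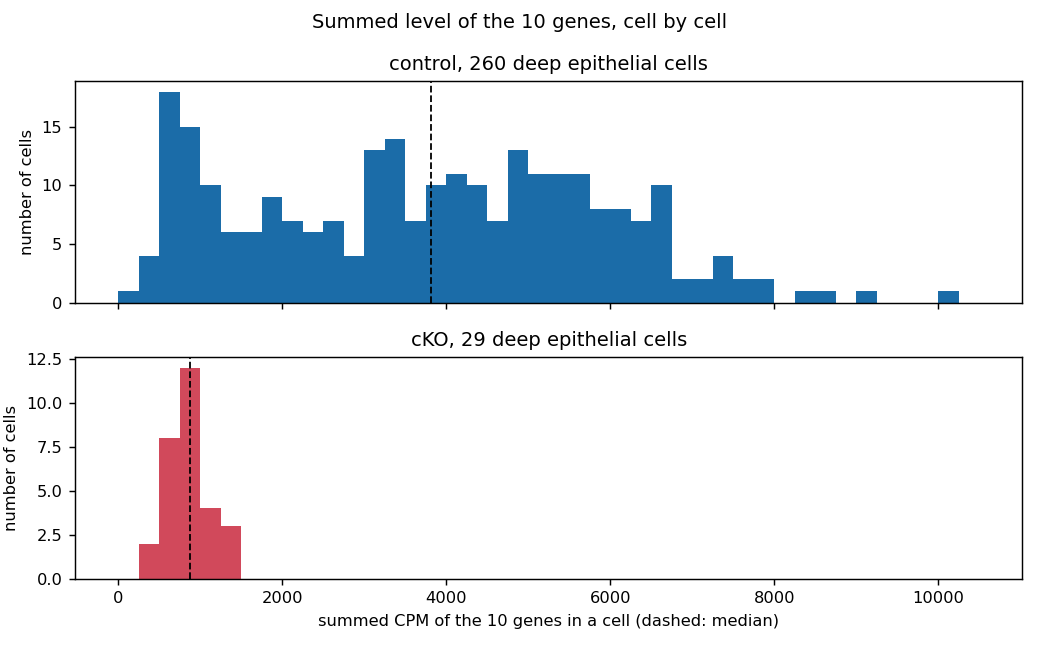
Number of deep epithelial cells by summed CPM of the 10 genes, control (260 cells) above and cKO (29 cells) below; dashed lines are medians. Control cells spread from 108 to 10121 CPM, and all cKO cells lie at or below 1359.8 CPM.

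Within deep control cells the 8 genes other than the carbonic anhydrases varied together, with correlations between 0.31 and 0.82. Across the 260 cells the Spearman correlation of CPM was, as a description, 0.82 between Pgk1 and Bnip3, 0.78 between Bnip3 and Egln3 and 0.75 between Pgk1 and Ldha. Over all 45 pairs the median was 0.42. Car9 had correlations of 0.13 to 0.30 with those 8 genes. Car12 had negative correlations with them, from -0.35 with Pgk1 to -0.035 with Vegfa. These cells share 1 library, and depth and RNA quality vary among them: Car12 went with the mitochondrial share (0.42) and with the stress genes (0.46), and Pgk1 against both (-0.41 and -0.43). In the 29 cKO cells the median over the pairs was 0.011, at levels where several of the genes had few UMIs.

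In control, Bnip3 was 2.62-fold higher (2.19 to 3.16) and Ankrd37 2.46-fold higher (2.13 to 2.85) in deep than in shallow epithelial cells, and Pdk1 was 2.50-fold lower (1.98 to 3.13). These were 2 of the 10 genes higher, where 10% of 11381 genes were, and 1 lower, where 12% were. The median was 0.53, against 0.017 for all genes. With a panel score of at least 20, Bnip3 and Ankrd37 both stood at a log2 ratio of 0.91 and were no longer called. Vegfa, 1.70-fold lower (1.63 to 1.78) in deep cells, and the remaining 6 genes were within 2-fold.

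The levels did not climb evenly with depth. Ankrd37 was at 117, 118 and 123 CPM in control cells of 2500 to 5000, 5000 to 10000 and 10000 to 20000 UMIs, then at 313 and 318 CPM in the next 2 bins up to 80000, and at 224 CPM above that. Slc2a1 and Pgk1 took a similar step at 20000 UMIs, from 437 to 662 CPM and from 371 to 669 CPM, so the split at 20000 UMIs coincides with it. The 80 cells just below the split, at 10000 to 20000 UMIs, had the highest Car9, 52.0 CPM (39.5 to 67.2), and the highest median mitochondrial share, 5.73%. Vegfa was highest at 2500 to 5000 UMIs, 1491 CPM (1397 to 1590), and lowest above 80000, 666 CPM (643 to 689). In deep cKO cells Vegfa fell from 136 CPM at 20000 to 40000 UMIs to 47.1 CPM above 80000, and Ldha rose from 253 to 467 CPM. Control Vegfa at these depths was 901 and 666 CPM, so its difference between libraries varied with depth. In cKO the 5 shallow cells held 18849 UMIs and give no usable profile. There 6 of the genes had enough UMIs and Bnip3 alone was called, lower in deep cells, from 3 UMIs in 1 shallow cell, where 2.4% of 8391 genes were called lower and 1.22% higher.

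**Figure D4:**
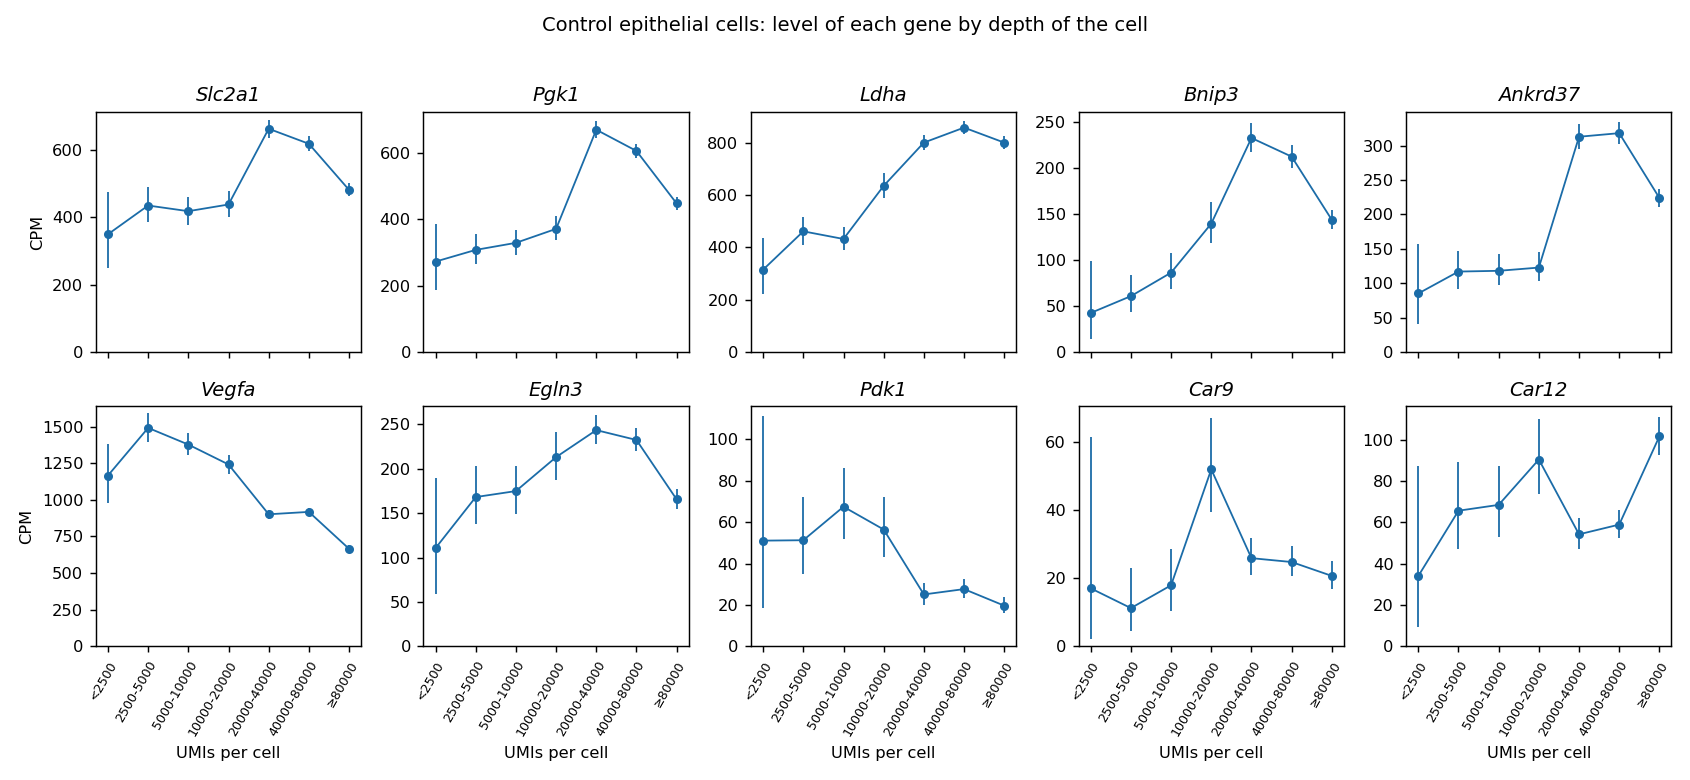
CPM of each of the 10 genes in control epithelial cells grouped by UMIs per cell, with 95% counting intervals; the lowest bin holds 69 cells and the highest 44. Slc2a1, Pgk1 and Ankrd37 step up at 20000 UMIs, and Vegfa peaks at 2500 to 5000 UMIs.

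Shares of cells with a transcript were compared at equal depth. After each cell was thinned to 1000 UMIs, Slc2a1 was found in 36.9% (31.0 to 43.1, exact binomial interval) of deep control and 6.90% (0.846 to 22.8) of deep cKO cells. Before thinning it was found in 96.5% and 96.6%. Vegfa was found in 48.8% (42.6 to 55.1) and 6.90% (0.846 to 22.8) after thinning, and in 96.5% and 93.1% before. Ankrd37 was found in 25.4% (20.2 to 31.1) of deep control cells and in 0 of 29 cKO cells, which allows a share of up to 10.3% at this depth by the limit of 3 counts (11.9% by the exact interval), and before thinning in 82.7% and 24.1%. Beside them stood lymphoid cells of the same libraries (156 and 413 cells, median 4843 and 4594 UMIs), without 2 cKO cells under 1000 UMIs. Their shares mix free RNA with any transcripts of their own. There the thinned shares in control and cKO were 2.56% and 2.19% for Slc2a1, 10.3% and 5.60% for Vegfa, and 0.641% and 0 for Ankrd37. Of the enzymes, Pgk1 was found in 39.2% (33.3 to 45.5) of deep control and 10.3% (2.19 to 27.4) of deep cKO cells, and Ldha in 49.2% (43.0 to 55.5) and 20.7% (7.99 to 39.7). These intervals count cells of 1 library each and do not cover spread between animals. Pgk1 and Ldha were each in 20.4% to 24.8% of lymphoid cells. Bnip3 was found in 52 of 260 deep control cells (15.3% to 25.4%) and Egln3 in 18.8% (14.3 to 24.1), and each in 0 of 29 cKO cells. In lymphoid cells both were at 0.730% to 1.92%. Pdk1, at 1.54% of deep control cells, Car9 at 1.92% and Car12 at 4.62% were too sparse at this depth to compare.

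Free RNA in the suspension carried the same genes. Barcodes with at most 100 UMIs held Ankrd37 at 64.4 CPM in control and 2.63 CPM in cKO, Egln3 at 59.3 and 7.0 CPM, Slc2a1 at 154 and 38.1 CPM, and Vegfa at 552 and 554 CPM. In control, Ankrd37, Egln3, Car12, Bnip3 and Slc2a1 in stroma were below their own free RNA levels. The control stroma thus held less of them than the free RNA around it, while Vegfa in control stroma was above its free RNA level. Subtracting the free RNA profile left the median ratio of deep cKO to deep control cells at -2.72.

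In the other classes fewer of the genes were called between libraries, and not in one direction. In stroma Bnip3 was 4.88-fold higher (3.67 to 6.62) in cKO, Pdk1 3.14-fold (1.87 to 5.64) and Pgk1 2.29-fold (2.14 to 2.44). With the gate gene alone Pgk1 stood at a log2 ratio of 0.97, under the 2-fold limit. These were 3 of 9 genes with enough UMIs, where 4.05% of 12996 genes were called higher and 6.95% lower, and none was lower. Vegfa, 1.18-fold apart (1.14 to 1.22), and Slc2a1, 1.11-fold (0.992 to 1.24), differed little in stroma, and Egln3, with 82 and 195 UMIs, had a ratio of 0.853 (0.655 to 1.12). The Bnip3 UMIs lay in 37 of 451 control and 161 of 971 cKO stromal cells. The thinned share, without 5 shallower cells in each library, was 0.673% (0.139 to 1.95) and 2.28% (1.43 to 3.43), against 1.92% (0.398 to 5.52) and 0.730% (0.151 to 2.12) in lymphoid cells. At this depth the control share was not above that of lymphoid cells, and the cKO interval overlapped theirs. Lymphoid cells can hold transcripts of their own, so these shares cannot tell stromal Bnip3 from free RNA. The stress genes summed to 4531 CPM in control and 5483 CPM in cKO stroma, the median mitochondrial share was 2.05% and 3.06% and the epithelial panel 43.3 and 13.9 CPM, and their part in the stromal values was not tested.

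In muscle Bnip3 was at 22.6 CPM (15 UMIs) in control and 61.5 CPM (102 UMIs) in cKO, 2.72-fold higher (1.57 to 5.03). The log2 ratio ran from 1.02 to 2.49 over the alternative settings. Bnip3 was the 1 gene called of 7 with enough UMIs, where 5.39% of 8529 genes were called higher and 3.4% lower. Its UMIs lay in 14 of 268 and 45 of 513 cells, 5.22% and 8.77%. Thinned to 1000 UMIs, which left out 49 and 90 shallower cells, the share was 3.20% (1.29 to 6.47) of 219 cells and 3.07% (1.65 to 5.20) of 423 cells, with overlapping intervals. The median mitochondrial share was 3.05% in control and 1.72% in cKO muscle cells, the epithelial panel summed to 160 and 21.7 CPM, and the muscle panel to 15641 and 12634 CPM. Their part in the Bnip3 difference was not tested. Pgk1, 275 and 422 CPM, was 1.54-fold apart (1.30 to 1.82).

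In macrophages Ankrd37 and Egln3 were lower in cKO, 2 of 7 genes with enough UMIs, where 3.52% of 8303 genes were called lower and 11.2% higher. Ankrd37 had 26 UMIs in 12 control cells and 1 UMI in cKO, a ratio of 0.0663 (0.00162 to 0.403). Egln3 had 45 UMIs, spread over 9 cells, in control and 6, in 4 cells, in cKO, 4.35-fold lower (1.85 to 12.5). Its log2 ratio ran from -4.04 to -1.78 over the alternative settings. The control levels, 12.3 and 21.2 CPM, were below those of free RNA in the same library. Vegfa was 1.68-fold apart in the other direction, 304 CPM in control and 511 CPM in cKO. The stromal panel in these macrophages was at 194 CPM in control and 730.0 CPM in cKO, and the stress genes summed to 6144 and 10386 CPM. The epithelial panel was lower in cKO, at 70.8 and 14.6 CPM, with 33 and 0 UMIs of Ltf. Their part in these values was not tested.

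In dendritic cells Bnip3 was 2.28-fold lower (1.11 to 4.57) in cKO, 1 of 5 genes with enough UMIs, where 4.88% of 8109 genes were called lower and 9.58% higher. It had 15 UMIs in 3 control cells, of which 86.7% were in 1 cell, and 23 UMIs in 16 cKO cells. Without that cell and the top cKO cell the log2 ratio turned from -1.21 to 1.13, so no direction can be given for Bnip3 there. The epithelial panel in dendritic cells was at 683 CPM in control and 66.0 CPM in cKO, and its part in these values was not tested. In shallow epithelium Slc2a1, with 1 UMI in cKO, and Vegfa, with 2, were called lower, where 1.48% of 6896 genes were lower and 5.25% higher. Their ratios were 0.127 (0.00320 to 0.708) and 0.0755 (0.00914 to 0.273). Of the 5 cKO cells 1 supplied 41.5% of UMIs, the muscle panel was at 42.6 CPM in control and 318 CPM in cKO, and the stress genes summed to 8701 and 12786 CPM. Their part in these calls was not tested.

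The rest of the pathway was read from lists of named genes. Of 17 other hypoxia targets with enough UMIs in deep epithelium 13 were lower in cKO and none was higher, where 9.47% of all genes were lower and 20% higher, with a median log2 ratio of -1.63. Ero1l, an oxidase of the endoplasmic reticulum, was at 1261 CPM in control and 91.3 CPM in cKO, 13.8-fold lower (12.1 to 15.8). Ddit4, an inhibitor of mTOR signalling, was 13.3-fold lower (10.3 to 17.4), and Kdm3a, a histone demethylase, 8.27-fold (6.30 to 11.1). Ak4, a mitochondrial adenylate kinase, had 2 UMIs in cKO and 596 in control, a ratio of 0.0186 (0.00224 to 0.0674). Among those not called, Adm, encoding the vasodilator adrenomedullin, stood at 950.4 and 813 CPM.

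Glycolysis was lower in part. Of 16 further glycolysis genes 8 were lower, 1 was higher and 7 were not called, beside the same 9.47% and 20% of all genes, with a median log2 ratio of -0.98. Slc16a3, the exporter of lactate MCT4, had 1774 UMIs in control and 4 in cKO, 80.1-fold lower (31.2 to 294). The phosphofructokinase subunits Pfkl and Pfkp were 7.45-fold (5.33 to 10.7) and 5.36-fold (4.24 to 6.88) lower. Slc2a3, the glucose transporter GLUT3, was higher in cKO with 14 UMIs against 6, 12.9-fold (4.66 to 41.0). Gapdh, at 1241 and 973 CPM, was not called.

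Of 7 genes that control HIF 1 was called lower and none higher, a share near the 9.47% of all genes called lower. It was Egln1, the main oxygen-sensing hydroxylase and itself a HIF target. Egln1 was lower by 3.30- to 4.88-fold, with 179.9 CPM in control against 45.0 CPM, and Hif1a stood at 353 and 309 CPM. Of 8 further genes of pyruvate and lactate use (pyruvate carriers, subunits of pyruvate dehydrogenase, 1 of its kinases, 1 of its phosphatases, and Ldhb) 4 were higher in cKO and none lower, with a median of 0.93, where 20% of all genes were higher. Pdk3, a kinase like Pdk1, was among the 4 not called. Ldhb, the dehydrogenase subunit that favours pyruvate, was 4.51-fold higher (3.79 to 5.35), Dlat, a subunit of pyruvate dehydrogenase, 3.22-fold (2.44 to 4.22), and the mitochondrial pyruvate carriers Mpc2 and Mpc1 2.38-fold (2.05 to 2.75) and 2.17-fold (1.82 to 2.58). Of 3 other carbonic anhydrases with enough UMIs none was called. Of 5 genes of the VEGF family and its receptors Flt1 was 4.65-fold lower (3.10 to 7.32) and Pgf higher, with 17 UMIs against 3, a ratio of 31.4 (9.07 to 167), so 1 was called in each direction, beside 9.47% lower and 20% higher of all genes.

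Of 14 dissociation stress genes 7 were lower in cKO in the same cells and none higher, again beside 9.47% and 20% of all genes, with a median of -1.05. Egr1 was 7.49-fold lower (6.38 to 8.85), Junb 4.99-fold (4.60 to 5.41), Fos 3.99-fold (3.60 to 4.44) and Atf3 3.88-fold (3.47 to 4.35), and of the heat shock genes Dnajb1 was 2.95-fold lower (2.57 to 3.41) while Hspa1a and Hspa1b were not called. The part of these genes in the levels of the hypoxia genes was not tested.

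**Figure D5:**
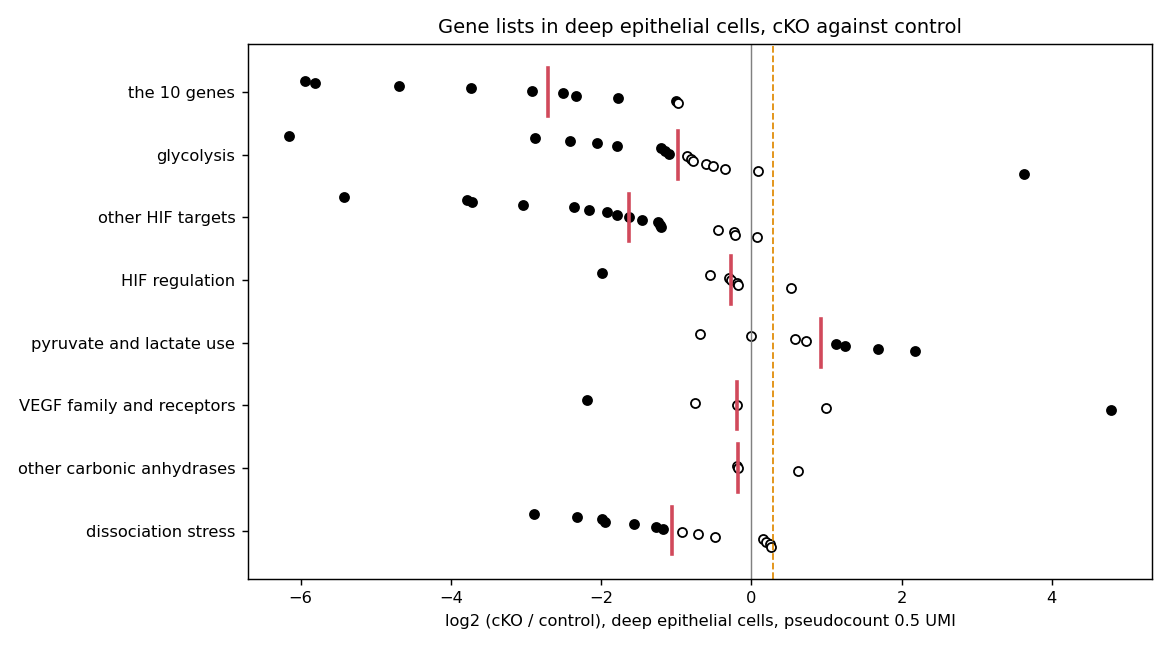
Log2 ratio of cKO to control in deep epithelial cells for each gene of 8 lists; filled points are called, red bars are list medians and the dashed line is the median of all genes, 0.29. The 10 genes (median -2.71) and other hypoxia targets (-1.63) lie to the left, and the genes of pyruvate and lactate use (0.93) to the right.

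In deep control epithelium against stroma the same lists were split, where 21.6% of all genes were higher and 35% lower. Other hypoxia targets had 10 higher and 3 lower of 18, with Ero1l 18.6-fold higher (17.0 to 20.4) and Ddit4 at 329 against 43.9 CPM, but Lox, a collagen crosslinker, had 4 UMIs against 1720. Glycolysis had 8 higher and 1 lower of 16, with Slc16a3 19.8-fold higher (14.7 to 27.2) and Tpi1 7.88-fold (7.09 to 8.78). In cKO none of the 18 hypoxia targets was higher in deep epithelium than in stroma and 8 were lower, and 6 of 15 glycolysis genes were lower and none higher, where 19.9% of all genes were higher and 22.2% lower. In stroma between libraries Slc16a3 was 6.30-fold higher in cKO (4.67 to 8.71) and Adm 2.41-fold (2.30 to 2.51), with 3 glycolysis genes higher and 1 lower of 16. Adm was the 1 other hypoxia target of 18 called higher there, and Pfkfb3 and Mxi1 were lower, where 4.05% of all genes were higher and 6.95% lower. In muscle 3 of 18 other hypoxia targets were higher and 1 lower, led by Lox, 5.81-fold (2.97 to 12.997), where 5.39% of all genes were higher and 3.4% lower. In macrophages 1 of 17 was higher and 1 lower, where 11.2% and 3.52% of all genes were.

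Of 10749 genes with at least 200 UMIs, the 5 whose levels were most like the mean of the 10 genes over 6 classes and both libraries (12 points, log2 CPM with 10 added) were Foxa1, Wfdc18, Apol9b, Ifnb1 and BC016579, with Pearson correlations of 0.95, 0.95, 0.95, 0.94 and 0.93. All 5 were at 1.62 CPM or less in deep cKO cells. The points share libraries and class sizes, and the value of the shallow cKO class rests on 5 cells. Among the 10 genes Slc2a1 was closest to the mean of the others, at 0.94, and Pgk1 farthest, at 0.31. An Ifnb1 transcript was seen in 41 deep cells of control and in 0 of 29 of cKO. The cells that held it had Slc2a1 at 659 CPM (628 to 690.2) and the other 219 cells at 562 CPM (548 to 576), Ankrd37 at 319.5 and 274 CPM and Bnip3 at 187 and 195 CPM, so these genes were high in control cells with and without it.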

How the data were processed

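The authors deposited whole-number UMI counts per gene and barcode, unfiltered. The file headers name Cell Ranger 4, while the submitters' processing notes name Cell Ranger 6.1.1 and mm10. Members, lists and contrasts were chosen with earlier results of these data known. Cells had at least 500 genes and at most 20% mitochondrial UMIs. Each library's cells were compared with simulated doublets (2 per cell, rate 0.06, 2000 variable genes, 30 components), and a score above 0.25 removed 29 control (0.794%) and 64 cKO cells (1.29%). Classes needed at least 1 UMI of the gate gene and the leading panel by Poisson log-likelihood excess of at least 5, a rule set after seeing the data. Counts were summed per class and library and given as CPM with exact Poisson 95% intervals. Ratios had exact conditional binomial intervals, and log2 values of single genes and medians a pseudocount of 0.5 UMI. A count of 0 allowed 3 counts. No test was made, since each group is 1 library and cells are not replicates. All 10 genes are named, with up to 4 called genes per list and comparison, ranked by the interval limit nearer 1, and the 5 most alike. Dnajb1 and levels of single genes not called (Adm, Gapdh, Hif1a, Hspa1a, Hspa1b, Pdk3) were named after their values were seen, and 1 listed gene is not reported here. Aldoa, which has 2 rows, was left out of the glycolysis list, and Pfkfb3 is in 2 lists. Gene positions are from GENCODE M21, which held 99.6% of the identifiers, and promoters from RefSeq. Python 3.11.15, numpy 2.4.6, scipy 1.17.1, pandas 2.3.3 and scikit-learn 1.9.0 were used. Only the call rule and the ratio intervals were tested on simulated data, without spread between cells or animals.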

Additional observations from a re-analysis of the deposited data

Results flagged for a closer look

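Bnip3 went in opposite directions in different cell classes under the same contrast. Its log2 ratio of cKO to control was 2.27 in stroma and 1.40 in muscle, but -4.69 in deep epithelium. In dendritic cells it was -1.21, with 86.7% of the 15 control UMIs in 1 of 3 cells, and 1.13 without the top cell of each library, so that value gives no direction. Pdk1 was likewise at 1.61 in stroma and -2.50 in deep epithelium. Bnip3 also turned between libraries in deep against shallow epithelium, at 1.38 in control and -4.63 in cKO, the latter from 3 UMIs in 1 shallow cell. None of these differences was tested, since each library is 1 pool.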

How the results depend on the processing

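No paired analysis was possible because each group is 1 library. The settings were gene minimums of 300 and 1000, a 10% mitochondrial limit, doublets kept, the gate gene without panels, averaged cells, median-of-ratios scaling, at least 10 UMIs per gene, free RNA subtracted, the top cell of each gene left out, other depth limits and, chosen after seeing the data, a panel score of at least 20 and deep cells of 20000 to 60000 UMIs. The median log2 ratio of cKO to control in deep epithelium ran from -3.29 to -2.09, the latter with the gate gene alone, and in stroma from 0.31 to 0.46. With the gate gene alone, deep against shallow cells moved from 0.53 to 0.87 in control and reversed from -2.14 to 0.23 in cKO. Averaging cells moved deep epithelium against stroma in control from 3.73 to 3.34. The muscle median ran from -0.011, with doublets kept, to 0.53. Of the single-gene values under these settings 1102 stayed within their main interval, 97 moved beyond it and 1 called value changed sign, Bnip3 in dendritic cells at 1.13. Values that were not called also changed sign, such as Car12 in deep against shallow control cells, from -0.44 to 0.73. The cause was not tested. The cKO epithelial values rest on 29 deep cells, of which 1 supplied 11.3% of UMIs, and on 5 shallow cells with 18849 UMIs.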
